A study of Mus musculus with 6 samples.

Results

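The testis-specific serine kinases of the mouse, Tssk1 to Tssk6, were described in RNA of sperm nuclei and of whole sperm. The genes were taken by name, and all 6 had a row among the 23229 genes of the count tables and in the RPKM table. The nuclei group held 2 preparations (nuclei 1 and nuclei 2) and the whole-sperm group held 1. Every preparation came from adult mice of the C57BL/6 transgenic line HP3.1, 4 months of age, whose sperm was collected from the cauda epididymis and the vas deferens. What the transgene carries is not given in the sources used here, and no library of a line without it was analysed here. Nuclei had been separated by sonication and ultracentrifugation through sucrose and caesium chloride cushions with detergent, steps that whole sperm did not undergo. Sperm was taken from individual animals, but the labels do not say which animal gave which preparation, so p-values measure only the spread between preparations, which may be technical.

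TSSK proteins are small serine/threonine kinases that consist of little more than a kinase domain and lie near the AMPK-related kinases in the kinase tree. Their genes are transcribed late in male germ cell development, in spermatids, before the nucleus is compacted and transcription stops. Mature sperm make little or no new messenger RNA, so transcripts found there are commonly regarded as left from spermatids. In mice, loss of Tssk1 together with Tssk2, of Tssk3 or of Tssk6 leaves males infertile, and loss of Tssk4 lowers fertility.

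Every protein kinase of this kind has a catalytic loop, which begins with the His-Arg-Asp codons and carries the catalytic aspartate. The 48 bases (16 codons) that start there are shown so that all members can be compared position by position from the same codons. No alignment was made, and members may differ in length within the stretch. They run 5′ to 3′ on the coding strand and were read from GENCODE vM21 transcripts (build mm10). Capitals mark bases that differ from Tssk6, the most abundant member.
Tssk1: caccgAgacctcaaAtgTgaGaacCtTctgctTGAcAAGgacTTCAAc
Tssk2: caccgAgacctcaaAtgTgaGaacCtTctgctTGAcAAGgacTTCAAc
Tssk3: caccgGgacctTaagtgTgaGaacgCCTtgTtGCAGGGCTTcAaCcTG
Tssk4: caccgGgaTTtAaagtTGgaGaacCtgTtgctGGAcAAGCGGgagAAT
Tssk5: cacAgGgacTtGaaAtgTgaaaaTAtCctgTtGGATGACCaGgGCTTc
Tssk6: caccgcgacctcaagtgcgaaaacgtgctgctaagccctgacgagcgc

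These stretches lie at chr16:17894752-17894799 (Tssk1, plus strand), chr16:17899134-17899181 (Tssk2, plus), chr4:129489437-129489484 (Tssk3, minus), chr14:55651111-55651531 (Tssk4, plus), chr15:76373521-76373645 (Tssk5, minus) and chr8:69902704-69902751 (Tssk6, plus). An intron splits the stretch in Tssk4 and in Tssk5. The Tssk4 sequence comes from a coding transcript other than the one in the RPKM table. The coding sequence of the RPKM-table transcript held no contiguous His-Arg-Asp codons, and whether it holds the rest of the stretch was not examined. Tssk1 and Tssk2 were identical over the loop and differed from Tssk6 at 17 bases and 5 residues. Tssk3 and Tssk4 each differed from Tssk6 at 21 bases, and Tssk5 at 23, with 6 residues changed in each. These counts are by position and may change if gaps are allowed.

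Tssk1 and Tssk2 are the closest pair in sequence and position. They lie 715 bases apart on the same strand of chromosome 16, and their coding sequences were identical at 856 of 1045 aligned bases (81.9%). The other 14 pairs of members ranged from 62.2% to 67.6%. The longest run shared by Tssk1 and Tssk2 was 113 bases, against 9 to 14 bases in the other pairs. It is shown because a read that falls inside it cannot be assigned to one gene by sequence, and the loop is in capitals.
Tssk1 and Tssk2: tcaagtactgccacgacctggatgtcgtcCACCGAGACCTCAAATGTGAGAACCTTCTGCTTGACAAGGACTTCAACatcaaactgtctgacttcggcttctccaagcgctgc

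The run lies at chr16:17894723-17894835 in Tssk1 and chr16:17899105-17899217 in Tssk2, within codons 124 to 161 of each. Of all 50-base windows of the transcripts, 9.34% in Tssk2 occurred in Tssk1 too, and 3.84% in Tssk1 occurred in Tssk2 or in Dgcr2. The share was highest in Tssk6, where 25.4% of windows occurred in Ndufa13, a gene on the opposite strand. Counts of Tssk1, Tssk2 and Tssk6 are therefore uncertain by the reads that fall there. In the GENCODE transcripts, Tssk3, Tssk4 and Tssk5 had no such window in another gene. RefSeq gives wider bounds: it ends Tssk3 at 129491730, inside the Fam229a gene on the opposite strand. It starts Tssk4 at 55643651, inside Gm49747. Windows of these RefSeq bounds were not examined.

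By gene structure, the annotation gives a single exon for Tssk1 (chr16:17894223-17897922), Tssk2 (chr16:17898637-17900024) and Tssk6 (chr8:69902184-69903518), all on the plus strand. Tssk3 (chr4:129489014-129491022, minus strand) has 2 exons, Tssk4 (chr14:55650184-55652539, plus strand) has 4 and Tssk5 (chr15:76371952-76374938, minus strand) has 8. In the annotated transcripts of the RPKM table, coding lengths ran from 804 bases in Tssk3 to 1116 bases in Tssk5.

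Reads assigned to genes and assembled regions came to 5487306 for nuclei 1, 6648848 for nuclei 2 and 8316345 for whole sperm. The whole Tssk family took 762 counts in nuclei 1 (0.0139% of the library) and 1951 in nuclei 2 (0.0293%), with 2140 in whole sperm (0.0257%). In CPM (counts scaled to library size with TMM factors), the family summed to 145.4 in nuclei 1 and 292.5 in nuclei 2, with 247.2 in whole sperm. Whole sperm lay between the nuclei libraries. In bulk RNA, fewer cells of a type and less RNA per cell cannot be told apart. As a check of the cell type, the labelled sperm held spermatid transcripts in all 3 libraries. Tnp1, which encodes a transition protein of condensing spermatids, had 7602 counts in nuclei 1 and 5348 in nuclei 2, with 4970 in whole sperm.

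Tssk6 was the most abundant member in every library. Its protein acts in the compaction of spermatid chromatin. Per length, in RPKM (reads per kilobase of transcript, scaled to library size) from the authors' deposited table, Tssk6 stood at 25.9 RPKM in nuclei 1 and 85.9 RPKM in nuclei 2, with 82.8 RPKM in whole sperm. Nuclei 2 and whole sperm were close, and nuclei 1 was well below both. By RPKM, Tssk6 ranked 451 of 14176 genes above 0 in nuclei 1 and 179 of 12475 in nuclei 2, and in whole sperm 161 of 15113. It exceeded the next member by RPKM 4.96-fold in nuclei 1 and 27.1-fold in nuclei 2, and in whole sperm 9.30-fold.

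Tssk6 counts were 549 in nuclei 1 and 1752 in nuclei 2, with 1721 in whole sperm, or 104.8, 262.6 and 198.8 CPM in that order. The mean of the nuclei preparations was 183.7 ± 111.6 CPM (SD, n = 2), while whole sperm had 198.8 CPM. The nuclei libraries differed from each other 2.51-fold (nuclei 2 over nuclei 1), and they stood on either side of whole sperm. The log2 fold change of nuclei over whole sperm was -0.11 ± 0.74 (SE; edgeR quasi-likelihood test, Benjamini-Hochberg adjusted p = 1). Its approximate 95% interval from that SE ran from -1.57 to 1.34 on the log2 scale, so differences in either direction are not excluded by these libraries. All edgeR SEs given here were back-calculated from the log2 fold change and the F statistic of the test, and are approximate.

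**Figure D1:**
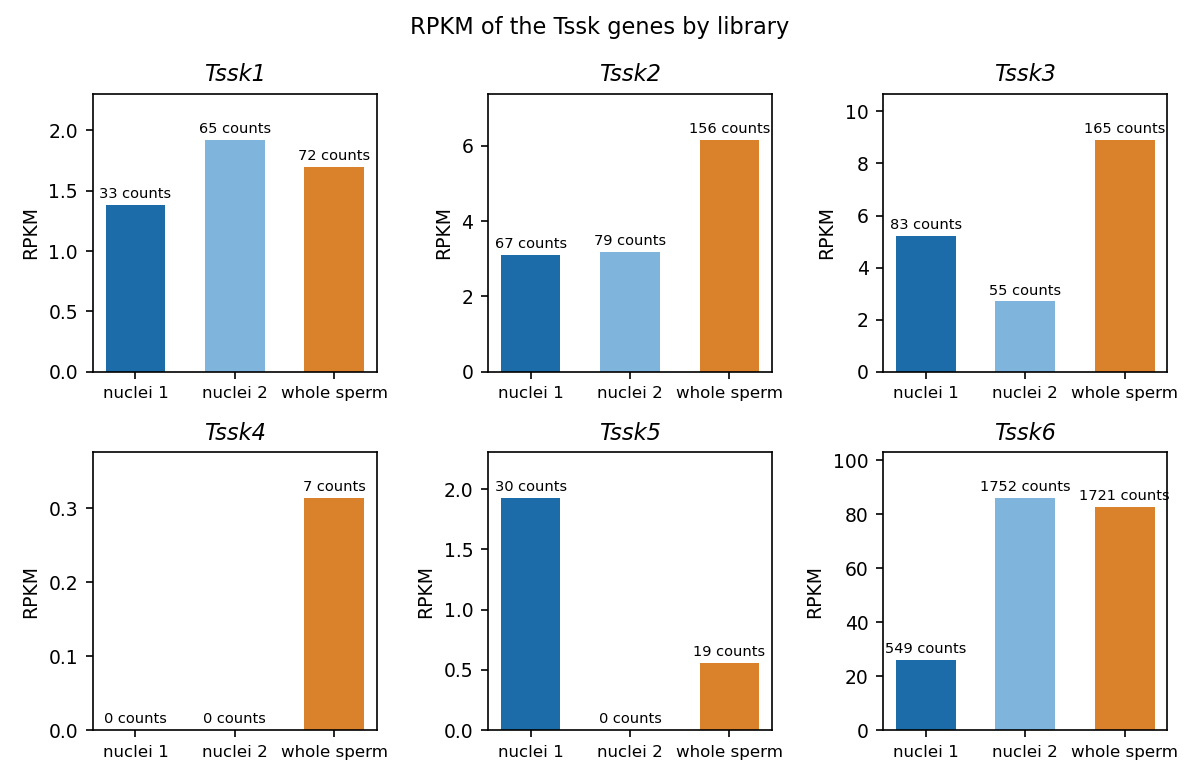
RPKM of the 6 Tssk genes in nuclei 1, nuclei 2 and whole sperm, 1 bar per library on a linear axis that differs between panels, with the gene count above each bar. Tssk6 reached 25.9 RPKM for nuclei 1, 85.9 for nuclei 2 and 82.8 for whole sperm, Tssk2 and Tssk3 were lower in both nuclei libraries than in whole sperm, and Tssk4 had counts in whole sperm alone.

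Tssk1 and Tssk2 were far lower than Tssk6. Their proteins act together in the last steps of spermatid shaping, where they bind the substrate TSKS. Tssk1 had 33 counts in nuclei 1 and 65 in nuclei 2, with 72 in whole sperm. Per length it stood at 1.38, 1.92 and 1.70 RPKM in that order. Whole sperm lay between the nuclei libraries by RPKM and by CPM. In CPM, Tssk1 averaged 8.02 ± 2.44 in nuclei (SD, n = 2) and stood at 8.32 in whole sperm (log2 -0.05 ± 3.32 SE, edgeR adjusted p = 1).

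Among members with counts in both nuclei libraries, Tssk2 gave the closest values between them. It had 67 counts in nuclei 1 and 79 in nuclei 2, with 156 in whole sperm. Its level was 3.11 RPKM in nuclei 1 and 3.17 RPKM in nuclei 2, a mean of 3.14 ± 0.0427 (SD, n = 2), against 6.16 RPKM in whole sperm. Both nuclei libraries were below whole sperm, by more than they differed from each other. In CPM, Tssk2 averaged 12.3 ± 0.667 in nuclei and stood at 18.0 in whole sperm (log2 -0.55 ± 2.15 SE, edgeR adjusted p = 1), so the difference did not pass the test.

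Tssk3, whose protein is needed for male fertility and whose activation loop is a substrate of the kinase PDPK1 in vitro, came next to Tssk6 in nuclei 1 and whole sperm. It had 83 counts in nuclei 1 and 55 in nuclei 2, with 165 in whole sperm. Per length it stood at 5.21, 2.70 and 8.91 RPKM in that order. Both nuclei libraries were below whole sperm. In CPM, Tssk3 averaged 12.04 ± 5.37 in nuclei (SD, n = 2), with whole sperm at 19.1 (log2 -0.66 ± 2.12 SE, edgeR adjusted p = 1).

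Tssk4 and Tssk5 had the lowest counts and CPM averaged over the libraries, although per length Tssk5 stood above Tssk1 in nuclei 1. The TSSK4 protein phosphorylates ODF2 of the sperm tail. Tssk4 had 0 counts in nuclei 1 and 0 in nuclei 2, with 7 in whole sperm, where it stood at 0.314 RPKM. It was the only member that failed the filter on low counts, so 5 of the 6 were tested. A floor of 3 counts per library corresponds to 0.573 CPM in nuclei 1 and 0.450 CPM in nuclei 2, with 0.809 CPM measured in whole sperm. As a share of the library, the exact Clopper-Pearson 95% interval for 0 counts reached up to 6.72e-05% in nuclei 1 and 5.55e-05% in nuclei 2. The same interval for whole sperm ran from 3.38e-05% to 0.000173%. The whole-sperm interval reaches below both nuclei limits. Overlap of such intervals is not a test, and each covers only the counting error of a single library. A difference in Tssk4 was therefore neither shown nor excluded by them.

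Tssk5 had 30 counts in nuclei 1 and 0 in nuclei 2, with 19 in whole sperm. Per length it stood at 1.92, 0 and 0.557 RPKM in that order. Nuclei 1 was above whole sperm and nuclei 2 below it. In CPM it averaged 2.86 ± 4.05 in nuclei (SD, n = 2) and stood at 2.19 in whole sperm. The log2 fold change was 0.38 ± 5.54 (SE, edgeR adjusted p = 1), and its sign depended on which nuclei library was used (1.28 from nuclei 1 alone, -3.09 from nuclei 2 alone). These single-library values are differences of log2 CPM after a small count was added. With 0 counts in nuclei 2, that addition set the size of -3.09.

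The order of the members per length was Tssk6, Tssk3, Tssk2, Tssk5, Tssk1 and Tssk4 in nuclei 1. In nuclei 2 it was Tssk6, Tssk2, Tssk3 and Tssk1, with Tssk4 and Tssk5 at 0. Whole sperm gave Tssk6, Tssk3, Tssk2, Tssk1, Tssk5 and Tssk4. Across the nuclei libraries, Tssk6 stood above Tssk3 and Tssk2, and these above Tssk1, without overlap of their RPKM values. Tssk3 (mean 3.95 ± 1.78 RPKM) and Tssk2 (3.14 ± 0.0427 RPKM) did not differ beyond their spread, nor did Tssk1 (1.65 ± 0.382 RPKM) and Tssk5 (0.962 ± 1.36 RPKM; SD, n = 2 for each).

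The make-up of the family differed between the nuclei libraries. Tssk6 took 72.1% of all Tssk counts in nuclei 1 (exact Clopper-Pearson 95% interval 68.7 to 75.2) and 89.8% in nuclei 2 (88.4 to 91.1), with 80.4% in whole sperm (78.7 to 82.1). None of these intervals overlap, and whole sperm lay between the nuclei libraries. Tssk3 took 10.9% in nuclei 1 (8.77 to 13.3) and 2.82% in nuclei 2 (2.13 to 3.65), with 7.71% in whole sperm (6.62 to 8.92). Tssk2 took 8.79%, 4.05% and 7.29% in the same order. The intervals measure counting error alone, because each rests on the counts of 1 library. Duplicate molecules from PCR were not marked, so the intervals may be too narrow even for counting error.

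**Figure D2:**
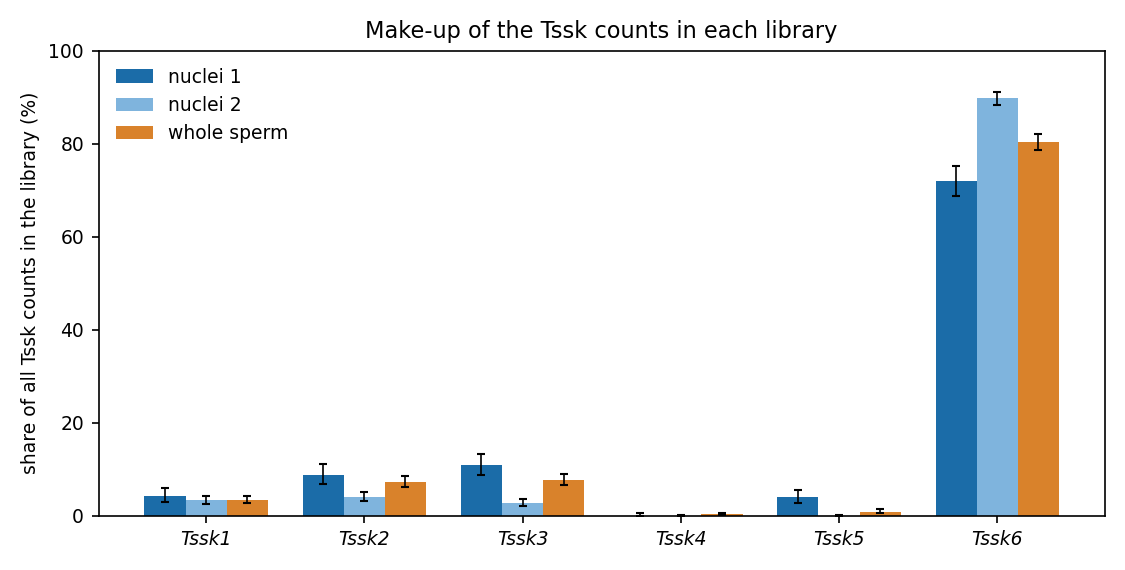
Share of all Tssk counts taken by each member, in percent, in nuclei 1, nuclei 2 and whole sperm, with exact 95% intervals that cover counting error only. Tssk6 took 72.1%, 89.8% and 80.4% in that order, and Tssk3 took 10.9%, 2.82% and 7.71%.

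Between the nuclei libraries, the members did not move together. In nuclei 2 over nuclei 1, by CPM, Tssk6 was at 2.51-fold, Tssk1 at 1.55-fold, Tssk2 at 0.926-fold and Tssk3 at 0.521-fold, while Tssk5 had counts in nuclei 1 alone.

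No member passed the test across all features. Of 16720 features tested with edgeR, 11 were higher in nuclei (0.0658%) and 16 were lower (0.0957%) at an adjusted p under 0.05, and 0 of the 5 tested Tssk genes were among either. At an unadjusted p under 0.05, 631 features were higher and 346 lower, and again 0 members. The 5 members had a median log2 fold change of -0.11, with 1 above 0 and 4 below, against a median of 0.27 over all features tested. The common biological coefficient of variation that edgeR estimated over features was wide, at 1.296. The quasi-likelihood test pools its own spread, so the SEs do not follow from that value. Among the tested members, only Tssk6 had an SE under 1.

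By direction alone, Tssk2 and Tssk3 were below whole sperm in both nuclei libraries, and 0 tested members were above it in both. Over all features tested, 36.8% were below whole sperm in both nuclei libraries and 26.7% above it by CPM, so a count of 2 in 5 is near the background. Tssk4, untested, was below as well. By RPKM the same 3 of 6 members were below in both nuclei libraries and 0 were above, against 51.4% and 18.3% of the 14989 genes tested.

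On the RPKM scale the members also did not pass. With limma on log2(RPKM + 0.1), 0% of 14989 genes were called higher and 0% lower in nuclei, while 148 and 1802 had an unadjusted p under 0.05. Tssk2 differed by -0.95 ± 0.49 (SE, adjusted p = 0.571), Tssk3 by -1.23 ± 0.73 (0.605) and Tssk6 by -0.81 ± 1.13 (0.751). The median over all genes was -0.94, so Tssk2 and Tssk6 lay near the middle of all genes on this scale. Tssk1 differed by -0.05 ± 0.74 (adjusted p = 0.975) and Tssk5 by -0.55 ± 2.82 (adjusted p = 0.930).

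Tssk4 gave the lowest limma p among the members, -2.05 ± 0.10 on the log2(RPKM + 0.1) scale (adjusted p = 0.136, unadjusted p = 0.00307). That value rests on 7 counts in whole sperm and on 2 nuclei libraries listed at 0, whose equal values give no spread. Its size was set by the pseudocount: with 1 in place of 0.1 the difference was -0.39 (limma adjusted p = 0.149).

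The RPKM and count tables gave different sizes of difference. For nuclei 1 over whole sperm, Tssk6 stood at 0.312-fold by RPKM and 0.527-fold by CPM, and Tssk2 at 0.505-fold and 0.710-fold, whereas Tssk1 stood at 0.815-fold and 0.757-fold. With 1 factor per library, the ratio of RPKM to counts would change between libraries in the same proportion for every member. Per 100 counts, Tssk6 had 4.71 RPKM in nuclei 1 and 4.90 in nuclei 2, with 4.81 in whole sperm. Tssk1 had 4.19, 2.96 and 2.36 RPKM per 100 counts in the same order, and Tssk2 had 4.65, 4.02 and 3.95. The tables were thus not scaled copies of each other.

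**Figure D3:**
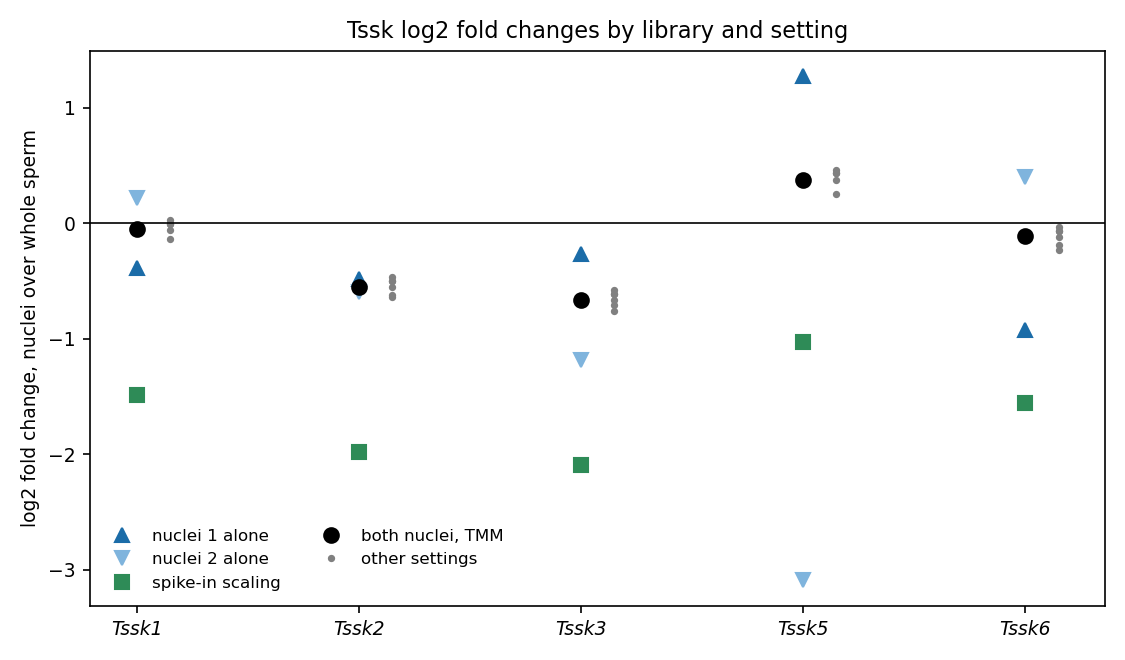
Log2 fold change of nuclei over whole sperm for the 5 tested Tssk genes with both nuclei libraries (black), with nuclei 1 or nuclei 2 alone (triangles), under spike-in scaling (squares) and under the other settings (small grey points). Tssk2 and Tssk3 were below 0 in every setting drawn, whereas Tssk1, Tssk5 and Tssk6 stood on opposite sides of 0 in the 2 nuclei libraries.

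Which nuclei library was used decided the sign for 3 members. From nuclei 1 alone the log2 fold change over whole sperm was -0.92 for Tssk6 and -0.39 for Tssk1, and from nuclei 2 alone it was 0.40 for Tssk6 and 0.22 for Tssk1. For Tssk3 it was -0.26 from nuclei 1 and -1.18 from nuclei 2, and for Tssk2 it was -0.49 and -0.59. These single-library values carry no test.

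Scaling by the ERCC spike-ins, synthetic RNAs added to the samples, moved every value downwards together. The spike-ins shared by all tables took 589074 counts in nuclei 1 and 768443 in nuclei 2, with 364403 in whole sperm. With this scaling the median of all features was -1.16, Tssk6 stood at -1.56, Tssk2 at -1.98, Tssk3 at -2.09, Tssk1 at -1.49 and Tssk5 at -1.03. Relative to that median the members lay at -0.39, -0.82, -0.93, -0.32 and 0.13 in the same order. The lowest adjusted p among them was 0.289 (Tssk6, edgeR). The scaling assumes that each library received the same amount of spike-in, which is not given in the sources used here.

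Genes whose products act on or with the kinases were examined as a list of 11, all of them tested. No gene of the list passed edgeR in either direction, their median log2 fold change was 0.00, and 6 were above 0 and 5 below. Among activators, Pdpk1, which phosphorylates the activation loop of many kinases, had 293 counts in nuclei 1 and 1109 in nuclei 2, with 711 in whole sperm (log2 0.44, edgeR adjusted p = 0.985). Tsacc, a co-chaperone that binds TSSK6, had 54, 64 and 112 counts (log2 -0.38, adjusted p = 1). The HSP90 chaperone genes, on which TSSK activity depends, stood at -0.46 for Hsp90aa1 (adjusted p = 0.966) and 0.00 for Hsp90ab1 (adjusted p = 1).

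Among substrates, Tsks, which encodes the substrate of TSSK1 and TSSK2, showed the widest difference. It had 555 counts in nuclei 1 and 2157 in nuclei 2, with 337 in whole sperm, or 106, 323 and 38.9 CPM. Both nuclei libraries were above whole sperm, and the log2 fold change was 2.46 ± 0.86 (SE), but the edgeR adjusted p was 0.370. Of its kinases, Tssk1 stood at -0.05 (0.029 without the 10 most abundant features) and Tssk2 at -0.55, and the difference between genes was not tested. Odf2, an outer dense fibre gene of the tail, had 2393 counts for nuclei 1, 4350 for nuclei 2 and 2728 for whole sperm (log2 0.82, adjusted p = 0.909).

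The remaining genes of the list did not pass either. Spag16, of the axoneme, had 226 counts in nuclei 1 and 970 in nuclei 2, with 1046 in whole sperm (log2 -0.36, edgeR adjusted p = 0.992). H2afx, the histone H2A.X gene, had 10, 112 and 57 counts (log2 0.51, adjusted p = 1). Creb1 and Crem, transcription factors of the cAMP response, stood at 0.16 (adjusted p = 1) and -1.04 (adjusted p = 0.909). Ppp1cc, a protein phosphatase catalytic subunit that male germ cells use, measured 30.5 CPM in nuclei 1 and 27.0 CPM in nuclei 2, with 110 CPM in whole sperm (log2 -1.93, adjusted p = 0.769). Both nuclei libraries were below whole sperm.

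**Figure D4:**
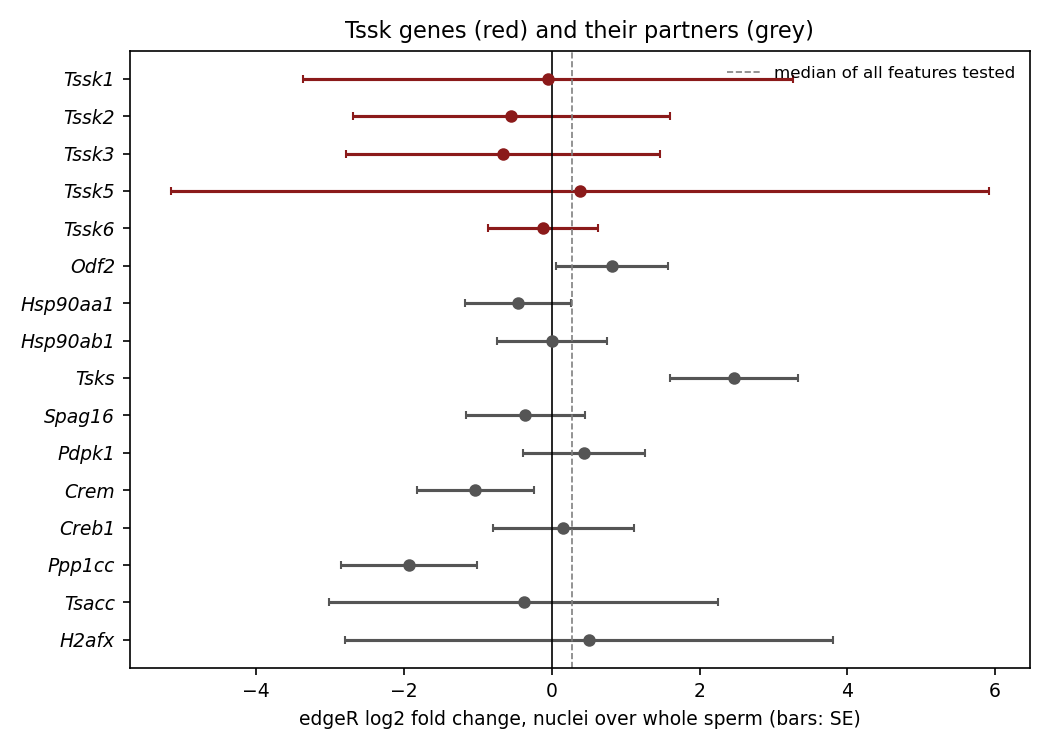
edgeR log2 fold change of nuclei over whole sperm, with its SE as a bar, for the 5 tested Tssk genes (red) and the 11 genes of substrates, activators and related proteins (grey), with the median of all features tested (0.27) as a dashed line. Tsks stood highest at 2.46 and Ppp1cc lowest at -1.93, and no gene drawn passed the adjusted test.

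No gene of the other kinase lists passed the test. Of 17 AMPK-related kinase genes with a row, 14 were tested, 0 passed in either direction, and 12 lay above 0 (median log2 0.54). Sik1, a salt-inducible kinase gene, had 1408 counts in nuclei 1 and 3117 in nuclei 2, with 877 in whole sperm (log2 1.86, edgeR adjusted p = 0.624). Brsk2 had 1241, 1274 and 1461 (log2 0.34, adjusted p = 0.991). Of 17 tested genes for other kinases of spermatids and sperm, 0 passed and the median was -0.11. Ulk4 stood at 0.94 (adjusted p = 0.909) and Camk4, a calmodulin-dependent kinase gene, at -1.08 (adjusted p = 0.909). The list of sperm phosphatases and kinase scaffolds (14 tested, 0 passed) had a median of -0.48, with Cabyr at 1.09 (adjusted p = 0.909) and Akap4 at 0.33 (adjusted p = 0.993).

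Epididymal and epithelial marker genes had a lower summed level in both nuclei libraries than in whole sperm. Of 12 tested epididymal genes, 11 lay below 0 (median log2 -2.15), and their summed level was 2945 CPM in nuclei 1 and 2900 CPM in nuclei 2, with 17650 CPM in whole sperm. Crisp1, a secreted epididymal protein gene, passed the test. It had 2556 counts in nuclei 1 and 3504 in nuclei 2, with 55869 in whole sperm (log2 -3.67, edgeR adjusted p = 0.0241). Of the 20 epididymal genes, 7 were at 0 in nuclei 1 and 10 in nuclei 2, with 8 in whole sperm. Akr1b7, of the vas deferens, stood at -2.75 (adjusted p = 0.228).

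Of 12 epithelial markers, 10 were below 0 (median log2 -1.81), and they summed to 115.8 CPM in nuclei 1 and 182.4 in nuclei 2, with 632.9 in whole sperm. Cldn8, a tight-junction gene, passed the test (90, 45 and 1358 counts in that order, log2 -3.71, edgeR adjusted p = 0.0416), and Cdh1 did not (log2 -2.63, adjusted p = 0.396). Tssk2, Tssk3 and Tssk4 were below whole sperm in both nuclei libraries. So were 36.8% of all features tested by CPM and 51.4% of the genes tested by RPKM. The part of other cells in the Tssk values was not tested.

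Markers of spermatids, the cells in which the Tssk genes are transcribed, lay mostly on the other side of 0. Of 18 tested, 0 passed, 13 were above 0 (median log2 0.84), and they summed to 5011 CPM in nuclei 1 and 4671 CPM in nuclei 2, with 2710 CPM in whole sperm. Tnp1 stood at 0.97 (edgeR adjusted p = 0.909), and Tnp2, another transition protein gene, at 2.01 (adjusted p = 0.611). Of the 5 below 0, Smcp stood at -0.52 (edgeR adjusted p = 0.937) and Cabs1 at -1.55 (adjusted p = 0.909). The Tssk sum did not follow the order of the spermatid sum. It was 145.4 CPM in nuclei 1 and 292.5 CPM in nuclei 2, with 247.2 CPM in whole sperm. Single spermatid markers differed in order too. Tnp1 had 1451, 801.7 and 574 CPM in the same order of libraries, whereas Akap4 had 113, 215.7 and 131.2 CPM. Spermatocyte genes (14 tested, 0 passed) had a median of 0.14 and summed to 424.2, 403.4 and 262.1 CPM, with Ddx4 at 1.52 (adjusted p = 0.909) and Piwil1 at 0.11 (adjusted p = 1).

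The remaining marker lists had no gene past the test. Leukocyte genes summed to 24.0 CPM in nuclei 1 and 17.1 in nuclei 2, with 39.7 in whole sperm (7 tested, median log2 -1.73). Itgam stood at 2.12 (edgeR adjusted p = 0.987) and S100a8 at -1.05 (adjusted p = 1). Smooth muscle and stroma genes summed to 169.1, 94.9 and 155.9 CPM (10 tested, median -1.73), with Myh11 at 1.91 and Col3a1 at -1.66 (adjusted p = 0.909 each). Sertoli and Leydig cell genes summed to 68.1, 101.5 and 206.7 CPM, with Clu at -1.47 (adjusted p = 0.891) and Sox9 at 3.59 (adjusted p = 0.909). Of those 11 genes, 3 were tested, and 7, 8 and 8 were at 0 in nuclei 1, nuclei 2 and whole sperm, among them Star, Cyp11a1 and Insl3.

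Tssk6 shares genomic sequence with a neighbour on the opposite strand. Its exon overlaps exons of Ndufa13, a subunit gene of respiratory complex I, over 375 bases (28.1% of the Tssk6 transcript), and exons of Yjefn3 over 15 bases. Ndufa13 had 63 counts in nuclei 1 and 400 in nuclei 2, with 130 in whole sperm (log2 1.26, edgeR adjusted p = 0.909). Whether counting used strand is not given in the sources used here, so reads of Tssk6 and Ndufa13 over these bases cannot be told apart. Such reads may have been counted for either gene or left out as ambiguous, so the Tssk6 counts, shares and ranks may be too high or too low by them. Ndufa13 had fewer counts than Tssk6 in every library.

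In GENCODE, all 3700 bases of Tssk1 lie inside the Dgcr2 gene on the opposite strand, 63 of them in Dgcr2 exons. GENCODE ends Tssk1 at 17897922, whereas RefSeq ends it at 17895653. Dgcr2 had 94 counts in nuclei 1 and 236 in nuclei 2, with 114 in whole sperm (log2 1.02, edgeR adjusted p = 0.972), more than Tssk1 in each. Ess2, next to Tssk2 and listed under its older symbol Dgcr14, had 63 counts for nuclei 1, 1 for nuclei 2 and 8 for whole sperm. Beside Tssk3 in GENCODE, Bsdc1 had 143, 4 and 198 counts and Fam229a had 1, 67 and 0.

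The neighbours of Tssk5 were Hgh1, listed as Fam203a, with 2 counts for nuclei 1, 0 for nuclei 2 and 43 for whole sperm, and Mroh1 with 70, 142 and 213. Those of Tssk6 were Cilp2 with 6, 0 and 0 counts and Gatad2a with 311, 346 and 820. None of the tested neighbours passed the test. The neighbours Gm20518, Gm49747 and Gm49299, and Yjefn3, matched no row and were not analysed here.

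The genes whose levels were most like those of Tssk6 over the 3 libraries, by Euclidean distance of log2(CPM + 1), were Rnf121 (distance 0.253), Slc27a1 (0.298) and Cic (0.324). Rnf121 had 543 counts in nuclei 1 and 2087 in nuclei 2, with 1742 in whole sperm. Over 3 libraries such likeness is a description of level only.

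The authors also deposited an adjusted whole-sperm column, made by subtracting the average nuclei count from that of whole sperm, with negative results set to 0. It kept 571 for Tssk6 (33.2% of its whole-sperm count), 96 for Tssk3 (58.2%), 83 for Tssk2 (53.2%), 23 for Tssk1 (31.9%), 7 for Tssk4 (100%) and 4 for Tssk5 (21.1%). Together the family kept 784 of 2140 (36.6%), against 40.8% over all genes and regions, and no member was set to 0. Counts of libraries of different depth entered the subtraction without scaling.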

How the data were processed

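The 6 labelled samples are 2 runs of each of 3 preparations, and each preparation has 1 column in the tables. Each column was taken to combine both runs, which the files do not state. Gene and region counts were deposited by the authors as whole numbers without normalization. The submitters' processing notes name build mm10 and the tools TopHat2 2.0.12, CASAVA 1.8.2, HTSeq, bedtools, DESeq2, SAMtools 0.1.19 and Cufflinks 2.1.1, but not their roles. Whether counting was stranded is not given in the sources used here. RPKM values were deposited by the authors. The adjusted column that the authors deposited for whole sperm was read as a score, and all 25610 of its rows matched the subtraction rule within 0.5. Spike-ins (23 shared) and, in whole sperm, reads outside features (34.4% of the file total) or ambiguous (1.97%) were left out.

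Counts were tested with edgeR 4.0.16 (R 4.3.3; TMM, filterByExpr, quasi-likelihood, Benjamini-Hochberg, threshold 0.05), 1 residual degree of freedom and infinite prior degrees of freedom, so SEs and p-values rest on a spread pooled over features and whole sperm, with its single library, is taken to vary as nuclei do. RPKM was tested with limma 3.58.1 on log2(RPKM + 0.1) for genes with a mean of at least 0.1; fold changes on that scale understate those of low genes. Scripts were tested on simulated data. Positions, overlaps and sequences come from GENCODE vM21 and RefSeq (GRCm38), the assembly of mm10, with Biopython 1.88 for alignment. Members and lists were chosen with earlier results of these data known. Named genes are the members, all partner genes, and overlapping and neighbouring genes. Named as well are the 2 most abundant genes and any called gene of each other list, and the 3 genes most like Tssk6. Star, Cyp11a1, Insl3, Smcp, Cabs1, Spaca1 and Acrv1 were added after their values were seen. DESeq2 1.42.0, other scalings, filters and pseudocounts, and each nuclei library alone were alternatives.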

Additional observations from a re-analysis of the deposited data

How the results depend on the processing

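No tested Tssk gene passed an adjusted p of 0.05 under any setting run, and DESeq2 gave no adjusted p for Tssk5. Tssk2 and Tssk3 stayed below 0 under each. Tssk5 turned to -1.03 with spike-in scaling and to 0.14 with a pseudocount of 1 on the RPKM scale, and Tssk1 turned to 0.029 without the 10 most abundant features; the cause was not tested. With each nuclei library alone, log2 fold changes were differences of log2 CPM with a small count added. They ran from -0.39 to 0.22 (Tssk1), -0.59 to -0.49 (Tssk2), -1.18 to -0.26 (Tssk3), -3.09 to 1.28 (Tssk5) and -0.92 to 0.40 (Tssk6). RPKM differences ran from -0.28 to 0.17, -0.96 to -0.94, -1.69 to -0.76, -2.72 to 1.62 and -1.68 to 0.052 in the same order, with Tssk4 at -2.05 in both (both nuclei libraries are at 0) but at -0.39 with a pseudocount of 1. For Tssk5, with 0 counts in nuclei 2, the size of the low ends was set by the added count or pseudocount. Single-library values have no test, since no residual degree of freedom is left. Features called higher in nuclei numbered 11, against 6 with library size alone, 4 with spike-in scaling, 137 with DESeq2 and 0 with a mean of at least 10 CPM; features called lower numbered 16, against 545 with spike-in scaling, 36 with DESeq2 and 0 with a mean of at least 10 CPM. That filter left 7453 features and removed Tssk1, Tssk5 and Tssk4. Without a filter, Tssk4 had an edgeR adjusted p of 0.948. Counts of called features could not be made with a nuclei library left out. Depth limits Tssk4 and Tssk5, with at most 30 counts in a library, to detection. No paired analysis was possible because whole sperm has only 1 preparation, so the groups share fewer than 2 numbers.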
